A study of Mus musculus with 4 samples.

Results

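The 10 genes described here mark 3 granule-bearing blood cell types. Cpa3, Ms4a2 and Fcer1a stand for mast cells, Mcpt8 and Prss34 for basophils, Prg2, Prg3, Siglecf and Epx for eosinophils, and Gata2 is a transcription factor that all 3 lineages use. The genes were chosen by name, with no measured value in the rule but with earlier results of these data known. All 10 have a row among the 27998 gene rows of the count table, 9 have at least 1 count in the cells kept, and Epx has none. Of these 9, 6 have 50 or more counts and 3 (Ms4a2, Fcer1a and Prss34) have fewer.

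The cells are mouse leukaemia cells from bone marrow, profiled singly with the 10x Chromium 3' kit, which tags each captured transcript end with a unique molecular identifier (UMI). There are 4 samples with 1 sample in each group: Hif-1a KO with chemotherapy, Hif-1a wt with chemotherapy, Hif-1a KO with PBS and Hif-1a wt with PBS. All groups were C57BL6, 11 weeks of age. In every group the leukaemia had started from c-Kit+ marrow cells of Hif-1alpha Lox/Lox; CreERT2 mice, which carry a tamoxifen-activated Cre recombinase, infected with a retrovirus for MLL-AF9, a fusion gene that drives acute myeloid leukaemia. Primary leukaemias grown in wild-type mice were passed to further mice. From day 10 these received 1 mg tamoxifen or vehicle for 5 days. The chemotherapy groups then received cytarabine at 100 mg/kg for 5 days and doxorubicin at 3 mg/kg for 3 days, and the other groups PBS. GFP+ cells, the ones that carry the virus, were sorted 3 days after the last dose. The labels do not say how many mice or how many primary leukaemias a sample stands for.

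Cell barcodes carry a suffix (1, 2, 3 or 4), and no source used here ties a suffix to a sample. Values are therefore given per suffix, as 4 samples with no known genotype or treatment, and no group is compared with another. The table held 5664 barcodes, of which 5456 were kept (1174, 1251, 1625 and 1406 in suffixes 1 to 4). Their UMIs totalled 7644436, 8327726, 9932649 and 8550371, and the median cell had 6093.5, 6435, 5315 and 5324 UMIs. Levels are UMIs of a gene scaled to counts per 1000000 UMIs (CPM) over all kept cells of a suffix. With 1 sample per suffix there is no replicate and no p-value. Intervals are exact 95% intervals (Poisson for CPM, binomial for shares of cells) and cover counting error only. The suffixes shared 17 barcode sequences, which fell on 32 kept cells. Mixed cells (doublets) were not removed, because the caller run here, Scrublet, marked 0.495% of cells, too few to count as having worked.

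Mast cells, basophils and eosinophils arise from marrow progenitors and store their mediators in granules. Mast cells keep proteases such as carboxypeptidase A3, and they share with basophils the high-affinity receptor for IgE. Eosinophil granules are built around major basic protein and eosinophil peroxidase. Gata2 belongs to the GATA family of factors, is required in blood stem and progenitor cells, and takes part in the formation of mast cells and basophils.

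Because Gata2 is among the genes, the 250 bases before the start of each gene (RefSeq, GRCm38.p6) were searched on both strands for AGATAA and TGATAA, the letters that GATA factors are known to prefer. RefSeq windows were matched for 9 of the 10 genes, Prg2 being the exception, and 5 of them held at least 1 match. Of all 32851 promoter windows of this length, 16.6% held one. A match is a run of letters and not a shown binding site, and the absence of one says nothing about the factor. The windows of Cpa3, the most abundant mast cell gene here, of Ms4a2, which had the most matches, of Mcpt8, which had none, and of Prg3 are printed below 5' to 3' on the strand of the gene, with the match in capitals. They lie at chr3:20242182-20242431 (minus strand), chr19:11623720-11623969 (minus), chr14:56085198-56085447 (minus) and chr2:84987965-84988214 (plus).
Cpa3: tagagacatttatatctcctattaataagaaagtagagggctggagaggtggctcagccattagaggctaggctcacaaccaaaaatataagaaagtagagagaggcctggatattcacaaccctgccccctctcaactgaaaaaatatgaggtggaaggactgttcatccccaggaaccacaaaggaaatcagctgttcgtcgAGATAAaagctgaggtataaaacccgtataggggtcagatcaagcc
Ms4a2: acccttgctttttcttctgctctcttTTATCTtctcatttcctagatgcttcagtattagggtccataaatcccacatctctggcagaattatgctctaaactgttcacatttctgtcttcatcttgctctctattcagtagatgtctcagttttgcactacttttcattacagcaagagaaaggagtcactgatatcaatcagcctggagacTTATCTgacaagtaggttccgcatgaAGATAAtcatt
Mcpt8: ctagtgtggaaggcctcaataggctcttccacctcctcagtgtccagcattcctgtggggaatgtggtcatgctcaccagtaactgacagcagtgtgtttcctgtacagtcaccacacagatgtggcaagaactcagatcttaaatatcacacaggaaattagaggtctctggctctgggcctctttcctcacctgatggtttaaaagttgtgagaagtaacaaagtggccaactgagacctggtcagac
Prg3: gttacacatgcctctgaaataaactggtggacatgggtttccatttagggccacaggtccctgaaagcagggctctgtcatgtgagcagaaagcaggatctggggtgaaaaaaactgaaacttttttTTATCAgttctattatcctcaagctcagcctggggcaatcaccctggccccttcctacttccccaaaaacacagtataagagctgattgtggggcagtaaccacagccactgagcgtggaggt
The Cpa3 match begins 46 bases before the start. Ms4a2 has matches that begin 224, 37 and 11 bases before it, the first and second on the opposite strand. The Prg3 match, 123 bases before the start, is TGATAA read on the opposite strand. Single matches were found in the windows of Fcer1a and Prss34, and none in those of Siglecf, Epx and Gata2.

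Cpa3 (ENSMUSG00000001865.2, chromosome 3 from 20215620 to 20242181, minus strand, GRCm38), the gene for the mast cell granule protease carboxypeptidase A3, was the most abundant of the 10 in every suffix. Its levels in suffixes 1 to 4 were 174 CPM (165 to 183), 87.2 CPM (81.0 to 93.8), 83.7 CPM (78.1 to 89.6) and 52.9 CPM (48.1 to 58.0). Suffix 1 was highest and suffix 4 lowest, beyond counting error, with a ratio of 3.29 (2.95 to 3.67) between them. Suffixes 2 and 3 were not told apart, at a ratio of 1.04 (0.942 to 1.15).

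Mcpt8 (ENSMUSG00000022157.8, chromosome 14 from 56082166 to 56085273, minus strand), a serine protease gene used as a mouse basophil marker, split the suffixes more widely. Its levels were 124 CPM (116 to 132) and 75.5 CPM (69.7 to 81.7) in suffixes 1 and 2, but 5.74 CPM (4.35 to 7.44) and 6.32 CPM (4.74 to 8.24) in suffixes 3 and 4. Suffix 1 over suffix 3 gave a ratio of 21.6 (16.5 to 28.8) and suffix 2 over suffix 4 a ratio of 12 (9.05 to 16.1). Suffixes 3 and 4 did not differ beyond counting error, at a ratio of 0.909 (0.615 to 1.34). The last 400 bases of the Mcpt8 transcript, where 3' reads fall, were 79.6% identical to Gm48927 over 142 bases. Whether any read matched both was not tested.

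The eosinophil granule genes were ordered otherwise. Prg2 (ENSMUSG00000027073.5, chromosome 2 from 84980461 to 84983632, plus strand) encodes major basic protein and Prg3 (ENSMUSG00000027072.13, chromosome 2 from 84988215 to 84993886, plus strand) its neighbour and homologue. Prg2 had 0 UMIs in suffix 1, where the interval of a count of 0 reaches 0.483 CPM, and 3.48 CPM in suffix 2, 57.8 in suffix 3 and 4.09 in suffix 4. Prg3 had 1.70 CPM in suffix 1, 1.44 in suffix 2, 15.5 in suffix 3 and 17.0 in suffix 4. Prg3 thus separated suffixes 1 and 2 from suffixes 3 and 4, with a ratio of 0.110 (0.0571 to 0.193) for suffix 1 over suffix 3. Prg2 stood apart in suffix 3, at 14.1 times its level in suffix 4 (10.0 to 20.5), but suffix 2 over suffix 4 gave 0.851 (0.502 to 1.43), a difference within counting error. Prg3 did not differ beyond counting error between suffixes 3 and 4 (0.914, 0.724 to 1.16).

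Gata2 (ENSMUSG00000015053.14, chromosome 6 from 88193891 to 88207032, plus strand) varied least. Its levels in suffixes 1 to 4 were 32.2 CPM (28.3 to 36.5), 26.8 CPM (23.4 to 30.5), 30.2 CPM (26.9 to 33.8) and 24.2 CPM (21.0 to 27.7). The ratio of suffix 1 over suffix 4 was 1.33 (1.10 to 1.61) and that of suffix 1 over suffix 3 was 1.07 (0.896 to 1.27). Siglecf (ENSMUSG00000039013.16, chromosome 7 from 43351341 to 43359531, plus strand), a sialic acid-binding surface receptor of mouse eosinophils, stood at 17.7, 16.1, 23.9 and 24.4 CPM in suffixes 1 to 4. Suffix 2 over suffix 4 gave 0.658 (0.526 to 0.822), while suffixes 1 and 2 were not told apart (1.10, 0.858 to 1.4).

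**Figure D1:**
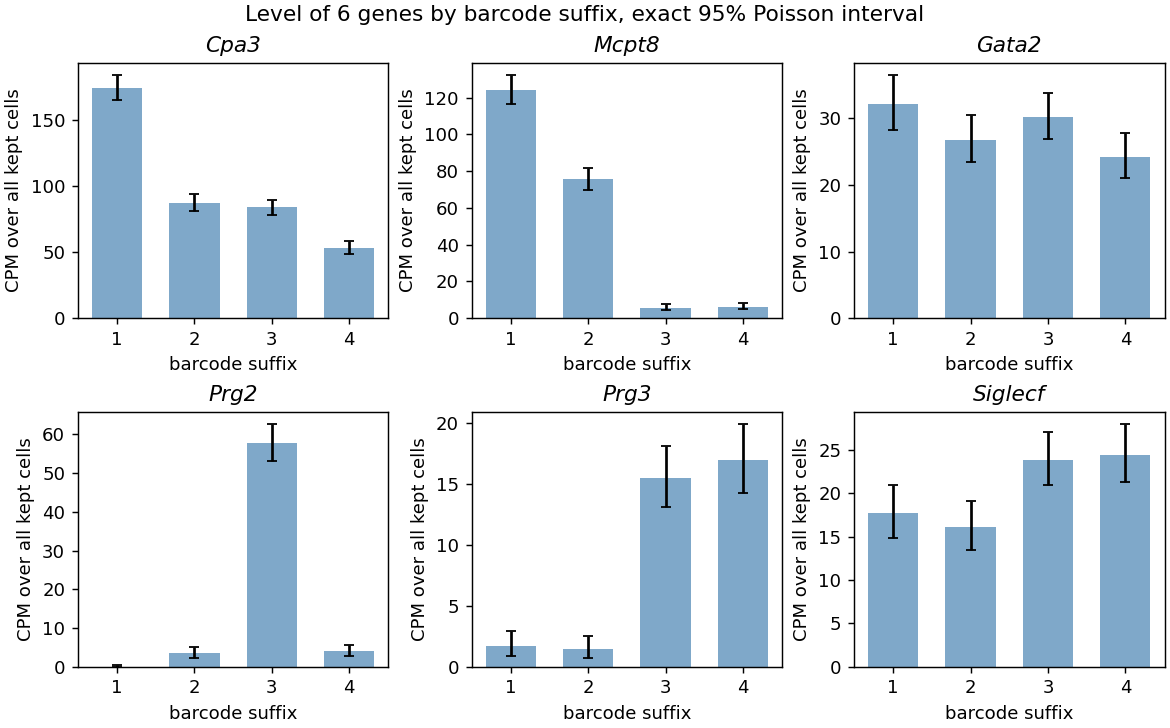
CPM of 6 genes over all kept cells, by barcode suffix; bars are the level of 1 sample and lines its exact 95% Poisson interval. Mcpt8 was 75.5 CPM or more in suffixes 1 and 2 and under 6.33 CPM in suffixes 3 and 4, Prg2 stood out in suffix 3 at 57.8 CPM, and Gata2 kept between 24.2 and 32.2 CPM.

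The 3 sparse genes added little. Ms4a2, the beta chain of the IgE receptor, had 9, 10, 1 and 0 UMIs in suffixes 1 to 4, with 6 of the 10 in suffix 2 in 1 cell. Fcer1a, its alpha chain, had 2, 0, 1 and 3 UMIs, and Prss34, a basophil protease gene, had 1, 0, 0 and 0. Epx, eosinophil peroxidase, had no UMI in 5456 cells, where the upper limit of the interval is 0.371 to 0.483 CPM per suffix. Of the 15 cells with an Ms4a2 UMI, 6 also had Cpa3 and 6 Gata2. The IgE receptor chains were therefore near the detection limit, while Cpa3 had between 452 and 1329 UMIs in each suffix.

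Cpa3 was concentrated in a minority of cells. A Cpa3 UMI was found in 282 cells of suffix 1 (24.0%), 173 of suffix 2 (13.8%), 171 of suffix 3 (10.5%) and 120 of suffix 4 (8.53%). The 1% of cells with most Cpa3 held 20.2%, 29.6%, 38.6% and 40.3% of its UMIs. The highest cells carried 33, 23, 39 and 20 UMIs, and 39, 17, 25 and 13 cells reached 10. Had the same UMIs been spread over cells by depth alone, 753 cells of suffix 1 would have held one, against the 282 seen.

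Mcpt8 was found in more cells than Cpa3 in suffixes 1 and 2, in 326 (27.8%) and 244 (19.5%), and in 48 (2.95%) and 45 (3.20%) cells of suffixes 3 and 4. The top 1% of cells held 17.8% and 27.8% of its UMIs in suffixes 1 and 2. Its highest cells had 25 and 32 UMIs there, and 3 and 6 UMIs in suffixes 3 and 4. In suffixes 3 and 4, 87.5% and 91.1% of the cells with Mcpt8 had a single UMI, and the 48 cells of suffix 3 are near the 55.8 that a spread by depth gives.

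Gata2 and Siglecf were the most evenly spread of the genes with 50 or more UMIs. Gata2 was found in 200 (17.0%), 177 (14.1%), 250 (15.4%) and 177 (12.6%) cells, with at most 5 UMIs in any. In suffix 1 a spread by depth would give 218 cells with Gata2, against 200 seen. For Siglecf, 190 cells were seen in suffix 3, where depth alone gives 217, with at most 4 UMIs in a cell. The variance over the mean of the UMIs per cell was 1.17 to 1.44 for Gata2 and 1.21 to 1.33 for Siglecf, against 7.61 to 12 for Cpa3.

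Prg2 was the most concentrated. In suffix 3 its 574 UMIs lay in 47 cells, where a spread by depth gives 465, the top 2 cells holding 48.4% of them and the top 3 holding 61.3%. The 1% of cells with most Prg2 held 94.6%. The highest cell had 164 Prg2 UMIs among 3089, or 5.31% of its transcripts, together with 3 Prg3 UMIs. Without that cell the level of suffix 3 is 41.3 CPM. At the other end, 34 of the 47 cells (72.3%) had 1 Prg2 UMI. In suffix 2, 25 of the 29 Prg2 UMIs were in 1 cell, and in suffix 4, 24 of 35. Prg3 was spread over more cells, 61 in suffix 3 and 66 in suffix 4, with up to 22 and 9 UMIs, and its top 1% of cells held 69.5% and 51.0%.

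**Figure D2:**
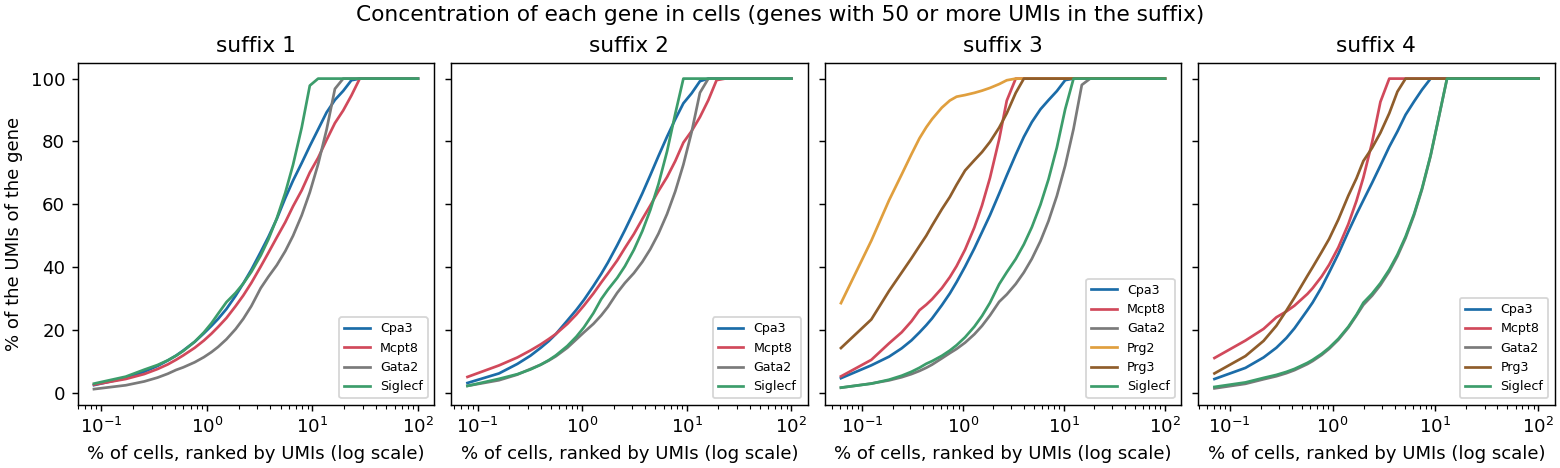
Share of a gene's UMIs (vertical, percent) held by the cells with most of it (horizontal, percent of the cells of a suffix, log scale), 1 panel per suffix, for genes with 50 or more UMIs there. The Prg2 curve of suffix 3 reaches 94.6% at 1% of cells, the Cpa3 curves reach 20.2% to 40.3%, and those of Gata2 and Siglecf climb more slowly.

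RNA freed from broken cells can give a cell a UMI of a gene it does not express. As a yardstick, cluster 1 (364 cells, led by Ngp, Camp and S100a9, neutrophil-like by its markers, median depth 6486.5 UMIs) held Cpa3 in 1.92% of cells, Gata2 in 2.47% and Mcpt8 in 2.20%. Only 9 and 19 of these cells are in suffixes 1 and 2, with Mcpt8 in 0 and 1 of them, too few to set a background there. In suffixes 3 and 4, Cpa3 (2.08% of the cluster in both) and Gata2 (2.08% and 3.47%) were found more often in all cells than in the cluster. The Mcpt8 shares of suffixes 3 and 4 stand beside 1.56% and 2.78% of the cluster's cells in the same suffixes, and are not read as expression. The cluster is less suited to the eosinophil genes, since it held 16 of the cells called positive for them below. In it, Prg2 was found in 4.40% of cells, Prg3 in 4.95% and Siglecf in 19.2%. Siglecf was thus found less often in every suffix as a whole (8.95% to 12.6%) than in the neutrophil-like cells, so its shares of cells are not read as eosinophil expression.

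For each lineage a cell was called positive with 3 or more UMIs summed over the lineage genes, without Gata2. By this rule 151, 89, 76 and 52 cells of suffixes 1 to 4 were mast-positive (12.9%, 7.11%, 4.68% and 3.70%), almost wholly through Cpa3. Basophil-positive cells numbered 111, 63, 3 and 2 (9.45%, 5.04%, 0.185% and 0.142%), almost wholly through Mcpt8. Eosinophil-positive cells numbered 3, 3, 36 and 30 (0.256%, 0.240%, 2.22% and 2.13%). The 3 cells of suffix 1 had 4, 3 and 3 Siglecf UMIs and no Prg2 or Prg3. In suffixes 3 and 4 most of the eosinophil-positive cells reached 3 UMIs through Prg2 and Prg3. The others did so only with Siglecf counted, which is not read as eosinophil expression above. The cut runs through a graded range: 30, 26, 25 and 25 cells of suffixes 1 to 4 had exactly 2 mast UMIs, and 36, 19, 9 and 14 had exactly 3. The names refer to the genes counted and not to a cell type.

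Mast and basophil genes met in the same cells of suffixes 1 and 2. In suffix 1, 26 cells were positive for both, where the product of the shares gives 14.3, and in suffix 2, 20 cells, where it gives 4.48. Basophil-positive cells made up 17.2% (11.6 to 24.2) of mast-positive cells and 8.31% (6.69 to 10.2) of the other cells in suffix 1. In suffix 2 they made up 22.5% (14.3 to 32.6) of mast-positive and 3.70% (2.69 to 4.95) of other cells. The log2 odds ratios were 1.21 and 2.92. In suffixes 3 and 4 no cell was positive for both, where the product gives 0.140 and 0.0740, so too few basophil-positive cells existed for a relation to be seen.

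Among cells with 10 or more Cpa3 UMIs, Mcpt8 was found in 13 of 39 in suffix 1 (33.3%) and in 10 of 17 in suffix 2 (58.8%). In suffixes 3 and 4, where Mcpt8 is scarce, it was found in 1 of 25 and 0 of 13. Of these 94 cells 10 had 3 or more Mcpt8 UMIs and 1 had 10 or more. Among cells with 10 or more Mcpt8 UMIs, Cpa3 was found in 6 of 15 in suffix 1 and 5 of 10 in suffix 2. The cell with most Cpa3 (39 UMIs, suffix 3) had no Mcpt8, and the cell with most Mcpt8 (32 UMIs, suffix 2) had 9 Cpa3 UMIs. With any UMI counted, Mcpt8 was found in 42.6% of the cells with Cpa3 and 23.1% of those without in suffix 1, and in 42.8% and 15.8% in suffix 2. In suffix 3 it was found in 2.92% and 2.96%, and in suffix 4 in 2.50% and 3.27%.

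Depth moves with both calls. Mast-positive cells had median depths of 5024, 4399, 3277 and 3694.5 UMIs, below the 6295, 6578, 5474 and 5418 of the other cells. Basophil-positive cells were deeper, at 7144 and 6993 UMIs against 5991 and 6433 in suffixes 1 and 2. Cells positive for both had medians of 6525.5 and 6719 UMIs, between those positive for mast genes alone (4736 and 3872) and for basophil genes alone (7290 and 7380). With every cell thinned to 2000 UMIs (29, 20, 45 and 20 shallower cells left out), a basophil UMI was found in 28.3% of cells with a mast UMI and 12.5% of others in suffix 1, and in 32.4% and 8.64% in suffix 2. Scrublet, which marked too few cells to count as having worked, marked none of the 46 cells positive for both. Their median Scrublet scores in suffixes 1 and 2 were 0.0869 and 0.0972. Those of cells positive for mast genes alone were 0.0625 and 0.0617, for basophil genes alone 0.0913 and 0.0801, and for neither 0.0749 and 0.0801. The part of doublets in the overlap was not tested.

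**Figure D3:**
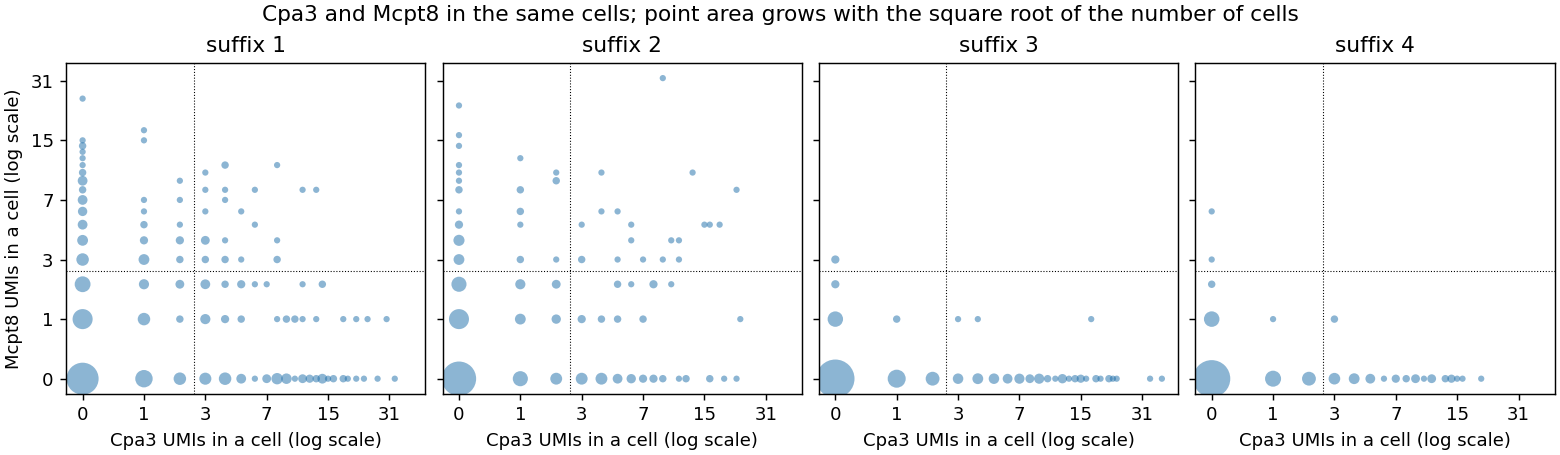
Cpa3 UMIs (horizontal) and Mcpt8 UMIs (vertical) in single cells, both on a log scale with 1 added, by suffix; the size of a point grows with the number of cells and dotted lines mark 3 UMIs. Cells in the upper right (both genes) occur in suffixes 1 and 2, while points of suffixes 3 and 4 lie along the Cpa3 axis, with Mcpt8 at 6 UMIs or fewer.

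Few cells were positive for eosinophil genes and another set, about as many as the shares alone give. The mast and eosinophil calls met in 1, 0, 1 and 1 cells of suffixes 1 to 4, where the products of the shares give 0.386, 0.213, 1.68 and 1.11. Those of suffixes 1 and 4 had 4 and 3 Siglecf UMIs and no Prg2 or Prg3. The basophil and eosinophil calls met in none, where the products give 0.284, 0.151, 0.0665 and 0.0427, and no cell was positive for all 3. With any UMI counted, mast and eosinophil genes met in 45, 28, 23 and 30 cells, where the products give 30.8, 17.3, 27.0 and 19.5. In thinned cells they met in 13, 8, 11 and 12, where the products give 9.64, 3.86, 8.21 and 5.52, so at 1 UMI they met above the product in every suffix but suffix 3 at full depth. At full depth Cpa3 and Siglecf by themselves met in 44, 25, 17 and 26 cells, so most of these cells held Siglecf. As stated above, Siglecf is not read as eosinophil expression. Basophil and eosinophil genes met at 1 UMI in 33, 30, 13 and 7 cells of suffixes 1 to 4. The products there give 34.8, 24.2, 7.53 and 7.20. In thinned cells they met in 4, 11, 0 and 0, where the products give 8.91, 4.72, 1.10 and 0.957, so the counts lay on both sides of the products. Genes of all 3 lineages were found at 1 UMI in 22 cells of suffix 1 and 17 of suffix 2, and none in suffixes 3 and 4. In suffix 1 all of these cells held Siglecf, since Prg2 had no UMI and no cell with Prg3 had a basophil UMI. Few basophil-positive cells (suffixes 3 and 4) or eosinophil-positive cells (suffixes 1 and 2) were present where the other occurred, so the calls could hardly meet.

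Prg2 and Prg3 met in 13 cells of suffix 3, where the product of the shares gives 1.76, and in 5 of suffix 4, where it gives 0.329. Of the 11 cells with 10 or more Prg2 UMIs, 9 (81.8%) had Prg3, 4 had Siglecf, 1 had Cpa3 and none had Mcpt8 or Gata2. By suffix these cells numbered 0, 1, 9 and 1. The 3' ends of Prg2 and Prg3 are 70.7% identical over 242 bases, and no source used here says how reads that match both were treated. The pair was not in fixed proportion: cells with 47 and 25 Prg2 UMIs had no Prg3, and 1 cell had 14 Prg3 UMIs with no Prg2. Siglecf was found in 34.4% of the cells with Prg3 and 10.8% of those without in suffix 3, and in 28.8% and 11.8% in suffix 4.

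Gata2 followed Cpa3. It was found in 27.7%, 29.5%, 35.7% and 29.2% of the cells with Cpa3, against 13.7%, 11.7%, 13% and 11.0% of the cells without, in suffixes 1 to 4. Both genes met in 78, 51, 61 and 35 cells, where the product of the shares gives 48.0, 24.5, 26.3 and 15.1. Over all suffixes Gata2 stood at 21.4 CPM in cells with no Cpa3, 49.4 with 1 UMI, 77.1 with 2 to 4, 125 with 5 to 9 and 147 with 10 or more. In suffix 3 the same classes held 23.4, 58.9, 96.2, 231 and 210 CPM, so the last step did not rise in every suffix. With Mcpt8 the difference was smaller: Gata2 was found in 20.9% of cells with Mcpt8 and 15.6% of those without in suffix 1, and in 18.9% and 13% in suffix 2. Cells positive for basophil genes alone had Gata2 at 30.9 and 31.4 CPM in suffixes 1 and 2. Cells positive for mast genes alone had it at 90.9 and 165 CPM, and cells positive for both at 78.5 and 67.8 CPM.

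Each class was then set against the other cells of its own suffix, over genes with a mean of at least 5 CPM. A gene was called higher or lower where log2 of (CPM + 1) over (CPM + 1) passed 1.5-fold the same way in every suffix with 30 or more cells on both sides, which meant all 4 for mast-positive cells, suffixes 1 and 2 for basophil-positive and suffixes 3 and 4 for eosinophil-positive cells. The call is one of size and not a test. For mast-positive cells it took in 0.862% of 8239 genes as higher (71) and 1.29% as lower (106). Scaling by trimmed means (TMM), which moves the median gene from -0.01 to -0.12, gave 55 and 151. Of the 7 other genes described here 5 were abundant enough, and 2 of them, Gata2 and Siglecf, were called higher.

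Gata2 stood at 88.1, 136, 183 and 110 CPM in mast-positive cells, against 25.2, 20.7, 26.1 and 21.8 CPM in the other cells (median log2 ratio 2.47). It was higher in each of the 4 suffixes, with no overlap of the ranges. Siglecf stood at 37.6, 40.7, 49.6 and 50.8 CPM, against 15.2, 14.7, 23.2 and 23.7 CPM (1.16), but was not called once cells were thinned (1.18). Mcpt8 stood at 243, 342, 11.5 and 8.46 CPM, against 109, 60.6, 5.58 and 6.25 CPM (1.03), which missed the call because suffix 4 fell short. The values of suffixes 3 and 4 rest on 3 and 2 UMIs in mast-positive cells.

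Of 20 genes of mature mast cell function, 4 reached 5 CPM and 1, Hdc, was called higher. The median log2 ratio of the 4 was 1.14, where all tested genes had -0.01. Hdc, the enzyme that makes histamine, stood at 81.1, 90.6, 61.1 and 33.8 CPM in mast-positive cells, against 34.5, 25.1, 7.03 and 7.22 CPM in the other cells (1.95). Kit, the stem cell factor receptor that mast cells keep, stood at 32.9, 52.1, 15.3 and 0 CPM, against 15.5, 13.2, 5.69 and 6.01 CPM (1.16), and was not called. Cd63, a granule membrane protein, stood at 540, 747, 603 and 338 CPM, against 249, 331, 277 and 246 CPM (1.12), and was not called either. Ctsg, cathepsin G, a granule protease shared with neutrophils and the most abundant of the 4, stood at 3212, 3643, 802 and 1112 CPM in mast-positive cells, against 3773, 3905, 1328 and 1454 CPM in the other cells (-0.31), lower in all 4 suffixes but not called. The remainder of the list was almost silent: 14 of the 20 genes, among them the chymases Cma1 and Mcpt4, the tryptases Tpsab1 and Tpsb2, and Tph1 of serotonin synthesis, had no UMI in any kept cell. Mitf, a transcription factor of mature mast cells, had 52 UMIs and none in a mast-positive cell. The label "mast cell" thus rests here on Cpa3 and not on the mature granule proteases. Hdc does not single out this class, since it was also called higher in eosinophil-positive cells (median log2 ratio 2.14). Gata2 was listed as a factor that all the lineages use, so its higher level does not name one of them.

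Genes of stem and progenitor cells were also among those called. Of 9 measured, 4 were called higher in mast-positive cells and none lower: Adgrg1, a surface receptor of stem cells, Angpt1, a growth factor, and the transcription factors Sox4 and Ikzf2. Adgrg1 stood at 175, 197, 141 and 110 CPM in mast-positive cells, against 59.8, 44.9, 16.4 and 14.5 CPM in the other cells (2.47). The median log2 ratio of the 9 was 1.16. Those of Angpt1, Ikzf2 and Sox4 were 2.53, 2.06 and 1.46. Over all genes the leading ones were Npy, a neuropeptide (4.84), Bcas1os2 (2.97), P2ry14, a receptor for UDP-glucose (2.73), Angpt1 and Slc22a3, an organic cation transporter (2.51). From the basophil list 2 of 14 were called higher (Hgf at 1.21 and Runx1 at 0.88) and from the eosinophil list 1 of 10 (Fut8 at 1.8). The medians of these lists were 0.41 and -0.24. The single measured T and NK cell gene, Il7r, a cytokine receptor, was called higher (2.43), and the single measured B cell gene was not called.

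Granulocyte genes were lower in mast-positive cells. Of 10 granulocyte precursor genes 5 were called lower, with Elane, neutrophil elastase, at -2.69 and Mpo, myeloperoxidase, at -2.54. Of 11 neutrophil genes 9 were lower, with S100a8 at -4.53 and Ngp at -5.54. The medians of these lists were -1.36 and -4.09. Of 13 monocyte genes 3 were lower, and of 20 S phase genes 2 were lower, while none of 20 G2/M genes was called (list medians -0.64, -0.97 and -0.38). The summed level of 8 megakaryocyte genes moved with the class, at 35.2, 29.4, 49.6 and 21.1 CPM in mast-positive cells, against 3.97, 2.54, 2.48 and 3.61 CPM in the other cells. Of the 87 UMIs of Itga2b, an integrin also carried by mast cells and progenitors, 47 lay in mast-positive cells, whereas Pf4, the defining platelet chemokine, had 2 UMIs in all kept cells and none in a mast-positive one. The part of megakaryocyte-like cells in the result was not tested. Erythroid genes summed to 12.9, 9.06, 0 and 4.23 CPM, against 10.7, 6.85, 7.34 and 7.70 CPM.

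Basophil-positive cells were set against the other cells in suffixes 1 and 2. Of all genes, 1.23% were called higher (101) and 4.61% lower (380), and none of the 5 measured genes of the set was called. Cpa3 stood at 192 and 435 CPM in basophil-positive cells, against 172 and 67.3 CPM in the other cells, so it passed 1.5-fold in suffix 2 but not in suffix 1. Gata2 stood at 41.4 and 42.1 CPM, against 31 and 25.9 CPM (0.54), and was called higher once cells were thinned (0.93). None of 4 mast cell list genes was called (list median 0.27, where all tested genes had -0.02) and none of 10 eosinophil list genes (-0.08). None of 14 basophil list genes was called higher (-0.25), and 2, the chemokines Ccl3 (-2.17) and Ccl4 (-0.91), were lower. The cytokines Il4 and Il13 and the receptor chain Il1rl1, all basophil products, had no UMI in any kept cell, and Cd200r3, a basophil surface receptor, had 94 UMIs, of which 17 lay in mast-positive and 2 in basophil-positive cells.

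Genes of cell division were among those higher in basophil-positive cells. Of 20 G2/M genes 6 were called higher and none lower, with Ube2c, a ubiquitin-conjugating enzyme of mitosis, at 1.22. The leading genes were Mxd3, a Max-binding transcription factor (1.55), Cdc25c, a phosphatase that starts mitosis (1.5), Spag5, a spindle protein (1.44), Mzb1 (1.39) and Adgrg1. The list median was 0.57. No S phase gene was called (list median 0.10). Adgrg1 stood at 132 and 149 CPM in basophil-positive cells, against 65 and 47.5 CPM in the other cells (1.32). Of 11 neutrophil genes 7 were lower, of 10 granulocyte precursor genes 4, with Elane at -1.61, and of 13 monocyte genes 6 (list medians -2.40, -0.81 and -1.08). The greater depth of these cells, given above, moves with these calls, and its part was not tested.

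For eosinophil-positive cells (36 and 30 cells in suffixes 3 and 4), 4.15% of 8237 genes were called higher (342) and 9.41% lower (775). In these cells of suffix 4, 1 UMI is 5.11 CPM, about the minimum mean of 5 CPM. Calls of the scarcest genes therefore rest on few UMIs, and the share due to counting error is not given here. Calls here and for basophil-positive cells rest on 2 suffixes and those for mast-positive cells on 4, so the counts of the 3 classes are not compared. Of the 3 other genes measured 1 was called: Gata2 was lower, at 12.3 and 5.11 CPM (3 and 1 UMIs) in eosinophil-positive cells, against 30.7 and 24.7 CPM in the other cells (-1.66), and it lost the call once cells were thinned (-0.73). Cpa3 stood at 24.7 and 40.9 CPM, against 85.1 and 53.1 CPM (-1.06), and was not called. It was called lower in thinned cells (-2.02). Of 10 granulocyte precursor genes 2, Cebpe and Gfi1, were called higher and 1, Ctsg, lower (list median -0.09). Cebpe, a transcription factor of granulocyte maturation, stood at 444 and 460 CPM, against 131 and 126 CPM (1.81), and Gfi1, a transcriptional repressor of granulocyte formation, at 78.2 and 81.8 CPM, against 19.8 and 24.2 CPM (1.82).

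Of 10 measured genes of the eosinophil list 2 were called higher, Cebpe and Id1 (1.14), with a list median of 0.01 where all tested genes had -0.11. Of 4 measured mast cell list genes 3 were called higher and 1, Ctsg, a granule protease shared with neutrophils, lower (-0.91), with a list median of 1.95. Cd63 stood at 1111 and 1268 CPM in eosinophil-positive cells, against 265 and 225 CPM in the other cells (2.28), and Hdc at 28.8 and 46.0 CPM, against 7.95 and 7.06 CPM (2.14). Kit stood at 41.2 and 10.2 CPM, against 5.06 and 5.75 CPM (1.77). It had 12 UMIs in the eosinophil-positive cells of all suffixes, so its call rests on few counts. The leading genes were Syne1, a nuclear envelope protein (2.63), the scavenger receptors Stab1 (2.38) and Olr1 (2.28), Cd63 and Vat1 (2.22). Mature eosinophil genes were missing: Il5ra, Ccr3 and Ear1 were among 6 of 23 list genes with no UMI, Gata1 had 2 UMIs in all cells, and Ear2 had 15 UMIs with none in an eosinophil-positive cell.

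Of other lineages, 10 of 13 monocyte genes and 6 of 20 G2/M genes were lower in eosinophil-positive cells. Of 9 stem and progenitor genes 3 were lower, with Sox4 at -3.57 and Flt3 at -3.26, and 1, Kit, was higher, from the few UMIs given above. Of 11 neutrophil genes 4 were lower. The medians of the monocyte, stem and neutrophil lists were -1.93, -0.35 and -0.63. The summed neutrophil genes stood at 11429 and 19864 CPM in eosinophil-positive cells, against 18767 and 12145 CPM in the other cells, lower in suffix 3 and higher in suffix 4. The median depth was 6819.5 and 5506.5 UMIs, against 5286 and 5322 UMIs. The part of neutrophil-like cells, of cells called only with Siglecf counted, and of depth in these calls was not tested.

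**Figure D4:**
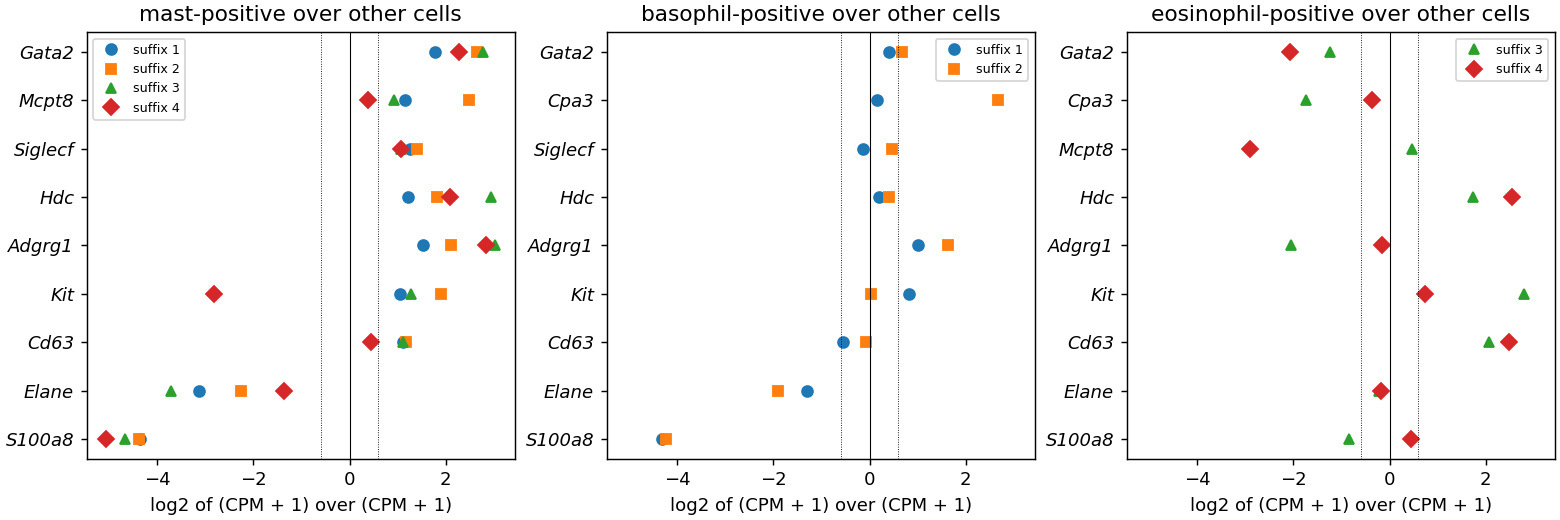
Log2 ratio of CPM + 1 in cells positive for mast (left), basophil (middle) or eosinophil genes (right) over the remaining cells of that suffix, for 9 genes each; a point is 1 suffix and dotted lines mark 1.5-fold. Gata2, Hdc and Adgrg1 lie right of the line in all 4 suffixes for mast-positive cells, and Cd63, Hdc and Kit in both suffixes for eosinophil-positive cells, whereas Elane and S100a8 lie far left for mast-positive cells. Kit had 12 UMIs in the eosinophil-positive cells of all suffixes.

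The cells were also grouped into 15 clusters without use of the 10 genes. Cluster 6 (414 cells, with 266, 129, 14 and 5 in suffixes 1 to 4) had as its leading genes Adgrg1, Cpa3, Mcpt8, Npy and Ptprcap. It held 7.59% of cells and 46.7% of all Cpa3 UMIs, at 743 CPM inside it and 55.0 CPM elsewhere. It also held 31.9% of Mcpt8 UMIs (257 CPM inside and 35.5 elsewhere) and 19.0% of Gata2 UMIs. Cpa3 had further homes: cluster 10 (563 cells, led by Wfdc17, Cyp4f18 and Tsc22d1) held 18.6% of its UMIs at 268 CPM, and cluster 9 (346 cells, led by Tsc22d1, Ddx4 and Fbxw4) 10.0% at 200 CPM. In cluster 14 (36 cells, with Ifit3, Irf7 and Rsad2, genes that interferon turns on, in the lead) it stood at 221 CPM, from 26 UMIs in 6 cells.

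The home of Cpa3 changed with the suffix. Of 368 mast-positive cells, 173 (47.0%) lay in cluster 6, and these came as 106, 54, 9 and 4 from suffixes 1 to 4. A further 66 lay in cluster 10, as 0, 0, 41 and 25, and 33 in cluster 9, as 1, 4, 17 and 11. Gata2 was alike in the mast-positive cells of clusters 6, 9 and 10, at 145, 140 and 173 CPM. Mcpt8 was not, at 217, 41.1 and 0 CPM. The 23 mast-positive cells of cluster 0 differed from these, with Gata2 at 29.8 CPM, from 4 UMIs, and Mcpt8 at 454 CPM. Suffixes differed in which clusters they filled, so suffix and cluster cannot be told apart in this comparison.

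Mcpt8 was less tied to cluster 6. The clusters led by cell division genes, 7 and 5, held 16.9% and 15.9% of its UMIs at 79.6 and 78.9 CPM, and of 179 basophil-positive cells 62 (34.6%) lay in cluster 6, 32 in cluster 5, 32 in cluster 7 and 21 in cluster 2. Within cluster 6, Mcpt8 was found in 39.7% of its cells with Cpa3 and 49.1% of those without in suffix 1, and in 42.7% and 42.6% in suffix 2. With 3 or more UMIs of each gene asked for, the shares were 12.3% (6.69 to 20.1) and 17.5% in suffix 1, and 22.2% (12 to 35.6) and 12% in suffix 2. The suffixes thus went opposite ways at 3 UMIs, with the share of the cells without Cpa3 inside the interval in suffix 1 and at its lower bound in suffix 2. Outside it, Mcpt8 was found in 46.0% of cells with Cpa3 and 19.4% of those without in suffix 1, and in 42.9% and 14.5% in suffix 2. Summed cluster by cluster, the product of the shares gives 98.6 cells with both genes in suffix 1 and 50.7 in suffix 2, where 120 and 74 were seen. The counts seen lay above these sums, which themselves lay above the plain products of 78.3 and 33.7.

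Cluster 11 (389 cells, with 12, 11, 183 and 183 in suffixes 1 to 4) had as its leading genes Clec4a2, Ltb4r1, Mogat2, Prg2 and Prg3. It held 69.3% of Prg2 UMIs, 59.3% of Prg3 UMIs and 19.3% of Siglecf UMIs. Within it Prg2 was still rare, in 12 of 183 cells of suffix 3 (6.56%) at a level of 383 CPM, while Prg3 was found in 31 of 183 (16.9%). Siglecf was found in 27.2% of its cells (22.9 to 32.0), the neutrophil-like cluster 1 having 19.2%. Of 72 eosinophil-positive cells, 38 (52.8%) lay in cluster 11 and 16 (22.2%) in cluster 1.

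**Figure D5:**
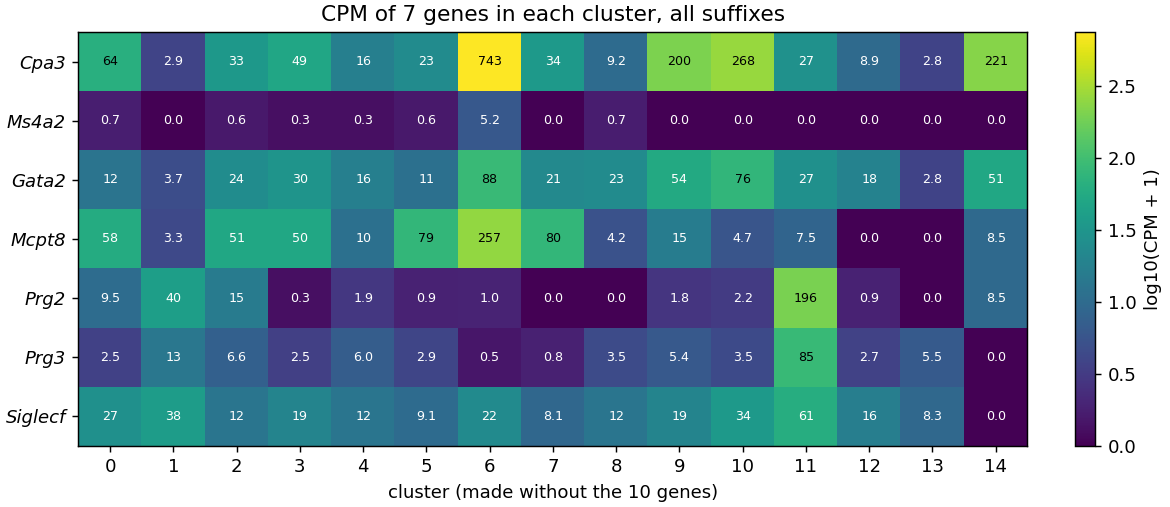
CPM of 7 genes (rows) in the 15 clusters (columns) over all suffixes; the colour is log10 of CPM + 1 and the number is CPM. Cpa3 is highest in cluster 6 at 743 CPM, followed by clusters 10, 14 and 9, Mcpt8 shares cluster 6 at 257 CPM and extends to the dividing clusters, and Prg2 and Prg3 peak in cluster 11.

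Genes most like each lineage were ranked by Pearson correlation across the kept cells of a suffix, as a description over 1174 to 1625 cells that share a library and differ in depth. For the mast genes these were Npy (median r over suffixes 0.42), Adgrg1 (0.28), Gyg (0.26), Slc22a3 and P2ry14 (0.23 each). For the eosinophil genes they were Cebpe and Cd63 (0.20 each), Mogat2 (0.18), Rgcc (0.16) and Clec4a2 (0.15). For the basophil genes the medians were weaker, with Adgrg1 at 0.15 and Ctsg at 0.13, followed by Ptprcap, Fabp5 and Sept1. These medians include suffixes 3 and 4, where Mcpt8 is not read as expression. Adgrg1 reached 0.224 and 0.237 in suffixes 1 and 2, against 0.003 and 0.076 in suffixes 3 and 4. Ptprcap reached 0.235 and 0.193, against 0.048 and 0.010, whereas Ctsg was not lower in suffixes 3 and 4.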

How the data were processed

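The authors deposited raw UMI counts for each gene in each barcode, from libraries of the 10x 3' V2 kit per the labels' protocols. Cell Ranger 1.3, Seurat 2.3.4 and mm10 are named in the submitters' processing notes, and Seurat 1.4 in the series design. No source used here names the annotation.

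Barcodes were kept from 500 UMIs upward and up to 10% of mitochondrial UMIs. All 208 removed barcodes exceeded the mitochondrial limit, and a floor of 3 counts is 0.302 to 0.392 CPM per suffix. No column of per-sample values was left unused (0). Counts were summed with numpy 2.4.6 and scipy 1.17.1 in Python 3.11.15. Clusters came from scanpy 1.11.5 (10000 UMIs per cell, 2000 variable genes without the members, 30 components, 15 neighbours, Leiden resolution 1). TMM factors came from edgeR 4.0.16. Classes were compared over genes with a mean of at least 5 CPM, with a pseudocount of 1 CPM and a fold of 1.5. The members, gene lists and cell type markers were chosen with earlier results of these data known. From each list the 2 genes with the highest mean and the 2 others with the largest ratio could be named, with the 5 leading genes per class, cluster and likeness. Some of these were left out of the text, and list genes outside this rule, such as markers listed at 0, were named after their values were seen. The planned median over suffixes of the overlap odds ratio is not given, since tables with no shared cell depend on the 0.5 added. The sums over classes were tested on simulated data. Sequences and their coordinates are from RefSeq, GRCm38.p6, and gene coordinates from Gencode on GRCm38.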

Additional observations from a re-analysis of the deposited data

Results flagged for a closer look

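In the 208 barcodes left out for high mitochondrial content (410256 UMIs over all suffixes), which no comparison uses, 4 of the genes lay above the limit that a count of 0 allows. Cpa3 had 30 UMIs (73.1 CPM), Mcpt8 had 29 (70.7 CPM), Siglecf had 10 (24.4 CPM) and Gata2 had 7 (17.1 CPM).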

How the results depend on the processing

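No paired analysis was possible because each group has 1 sample and no test was made. The 7 values of overlap and of positive shares stayed within their error with no filter on cells, with the Scrublet-marked cells removed, with the deepest 5% of cells left out, and, an alternative chosen after seeing the data, with cells of shared barcodes left out. Removing the Scrublet-marked cells could hardly move these values, since 27 of 5456 cells were marked. The threshold mattered more. The log2 odds ratio of mast and basophil calls in suffix 2 was 2.92, and became 1.96 at 1 UMI and 4.35 at 3 UMIs in thinned cells. In suffix 1 it was 1.21 and reversed to -0.13 at 10 UMIs, where no cell was positive for both (the product gives 0.498) and the value depends on the 0.5 added. Cells positive for mast and eosinophil genes numbered 3, and 126 at 1 UMI, 0 at 10 UMIs, 44 and 1 at 1 and 3 UMIs in thinned cells, and 0 with Cpa3 left out. Cells positive for basophil and eosinophil genes numbered 0, and 83 at 1 UMI or 15 at 1 UMI in thinned cells. The shares of mast-, basophil- and eosinophil-positive cells, as medians over suffixes, were 5.90%, 2.61% and 1.19%. They became 12.3%, 11.4% and 13.2% at 1 UMI, 1.49%, 0.400% and 0.0755% at 10 UMIs, 8.15%, 5.87% and 6.03% at 1 UMI in thinned cells, and 3.46%, 0.731% and 0.329% at 3 UMIs in thinned cells. With Cpa3 left out of the mast genes, too few positive cells were left for an odds ratio.

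Counts of genes called higher and lower depend on the settings by construction. At a fold of 2 they were 27 and 42 (mast), 8 and 142 (basophil), and 78 and 379 (eosinophil). With a minimum of 1 CPM they were 111 and 226, 220 and 653, and 515 and 1639. In thinned cells 205 were lower in mast-positive cells, and 318 and 767 (basophil) and 612 and 1672 (eosinophil) were higher and lower. Without the cell-cycle clusters they were 208 and 649 (basophil) and 1264 and 2224 (eosinophil), and a pseudocount of 5 CPM gave 51 and 193 (basophil). Without the cell-cycle clusters the eosinophil calls rest on 1 suffix, suffix 3. There Mcpt8 in eosinophil-positive cells, -1.22 and not called as a median of 2 suffixes, reversed to 1.06, and Cpa3 was called lower (-2.19). With all clusters Mcpt8 had 2 UMIs in those cells of suffix 3. Mcpt8 was called higher in mast-positive cells (1.3) and Prg3 lower in basophil-positive cells (-1.78) without those clusters. Both calls rest on few counts. With all clusters Mcpt8 had 3 and 2 UMIs in mast-positive cells of suffixes 3 and 4. Prg3 had 0 and 1 in basophil-positive cells of suffixes 1 and 2. Thinning gave Gata2 a call in basophil-positive cells (0.93) and Cpa3 one in eosinophil-positive cells (-2.02), and took those of Siglecf in mast-positive (1.18) and Gata2 in eosinophil-positive cells (-0.73). The share of Cpa3 UMIs in its main cluster, 46.7%, was 50.7% when the members took part in clustering and 44.0% at resolution 0.5. That of Mcpt8, 31.9%, was 39.8% when the members took part. At resolution 0.5 most Mcpt8 UMIs, 38.1%, lay in another cluster, of 1382 cells (25.3%) led by Hist1h2bc, Mpo and Ccnb2, at 67.8 CPM, and the cluster led by Cpa3 and Npy held 33.8% of them at 264 CPM. Of 24 levels, 24 kept within their interval with no filter, 12 moved when cells were averaged with equal weight, and 22 moved without the 1% of cells with most UMIs of the gene. Without those cells Prg2 in suffix 3 was 3.15 CPM. Of 21 shares of UMIs held by the top 1% of cells, 21 kept within their interval with no filter. In thinned cells 12 moved, all to higher values. Cpa3 in suffix 4 went from 40.3% to 49.4%, Prg3 in suffix 4 from 51.0% to 69.6%, and Gata2 in suffix 3 from 15.3% to 26.4%. These shares thus depend on depth. The cause of the other changes was not tested. Depth limits Ms4a2, Fcer1a, Prss34 and Epx, for which no relation could be seen.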
